A study of Mus musculus with 2 samples.

Results

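The Wnt ligands are secreted signalling proteins, and 8 of their genes (Wnt2, Wnt2b, Wnt4, Wnt5a, Wnt5b, Wnt6, Wnt9a and Wnt11) are described here by the cells that held their RNA at the base of the neonatal mouse heart. They were chosen by name among the 28692 genes counted, which include 19 Wnt ligands in all, and all 8 were found in both libraries. The study comprised 1 dorsal and 1 ventral single-cell library. Both came from untreated C57Bl6 mice of both sexes at 3 days of age, with the cells of 15 hearts pooled by domain, so single animals cannot be told apart. Dorsal tissue held the pulmonary veins, cardiac ganglia and sinoatrial node, and ventral tissue held the outflow tract base with the proximal aorta and pulmonary artery. Both pools were grown as adherent cultures for 5 days and released with trypsin before 10x Genomics 3' capture with version 3 chemistry, so the values describe cultured cells that had attached. Levels were read over barcodes with at least 8000 unique molecular identifiers (UMIs, counts of captured RNA molecules) and at most 20% mitochondrial UMIs, which left 8926 dorsal and 10649 ventral barcodes.

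Wnt proteins are fatty-acylated in the endoplasmic reticulum by porcupine (Porcn), carried to the cell surface by Wntless (Wls) and bound on neighbouring cells by Frizzled receptors, with Lrp5 or Lrp6 in the branch that stabilises beta-catenin and with Ror or Ryk receptors in branches that steer cell shape and polarity. Wnt5a and Wnt11 are best known for the polarity branch, and Wnt2 and Wnt2b mainly for the beta-catenin branch. In the developing heart Wnt11 and Wnt5a take part in forming the outflow tract, Wnt9a in cushion and valve tissue, and Wnt2 and Wnt2b in the dorsal mesenchyme shared with the lung.

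The fatty acid is attached to a conserved serine, and the coding sequence around it is shown because it is what these 8 genes share by descent whatever cells use them. The serine codon is in capitals within 24 bases of the coding strand, 5′ to 3′, from GENCODE M21 transcripts on GRCm38.
Wnt2: tgtcatggtgtgAGTggctcctgt
Wnt2b: tgtcacggtgtgAGTggctcctgt
Wnt4: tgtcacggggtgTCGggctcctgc
Wnt5a: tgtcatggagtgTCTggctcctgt
Wnt5b: tgtcacggagtcTCCgggtcctgc
Wnt6: tgccatgggcttTCGggttcctgc
Wnt9a: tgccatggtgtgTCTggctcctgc
Wnt11: tgccatggggtgTCTggctcctgc
Of the 24 positions, 14 held the same base in all 8 genes. Wnt2 and Wnt2b used an AGT codon and the other 6 a codon beginning with TC. The Wnt2 codon lies at chr6:18008801-18008803 on the minus strand in exon 4 of 5, the Wnt2b codon at chr3:104951229-104951231 on the minus strand in exon 4 of 5, and the Wnt4 codon at chr4:137296357-137296359 on the plus strand in exon 5 of 5. The Wnt5a codon lies at chr14:28522527-28522529 on the plus strand and the Wnt5b codon at chr6:119433809-119433811 on the minus strand, each in exon 5 of 5. The Wnt6 codon lies at chr1:74784184-74784186 and the Wnt9a codon at chr11:59330938-59330940, each on the plus strand in exon 4 of 4, and the Wnt11 codon at chr7:98850272-98850274 on the plus strand in exon 6 of 7. Wnt5a, Wnt5b and Wnt6 each overlap a counted gene on the other strand (Gm2670, Fbxl14 and Gm29539). Whether reads were counted by strand is not given in the sources used here, so reads of these pairs may not be told apart.

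The median depth per barcode was 22774 UMIs for dorsal and 21462 for ventral cells, and 22 barcode sequences occurred in both. The barcodes fell into 24 clusters, found without any Wnt pathway gene, and 18 of these took at least 90% of their cells from 1 library. Where a cluster comes from 1 library, a cell type and that library cannot be told apart. Class names rest on marker genes and end in "-like", and clusters that no marker list named stayed unnamed. The libraries also differed in the summed level of immediate early genes, at 3049 CPM (UMIs of a gene scaled to all UMIs of the summed cells in the usual way) for dorsal and 1259 CPM for ventral cells. Cell cycle genes went the other way, at 146 and 418 CPM. Whether these differences bear on the Wnt genes was not tested. With 1 library per domain there is no test between domains, and every interval given is a 95% interval that covers counting error only. In bulk sums of cells, fewer cells of a type and less RNA per cell cannot be told apart.

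Most of these ligands were higher in the dorsal library. Wnt4, Wnt5b and Wnt6 exceeded a 2-fold difference towards dorsal cells, Wnt5a was higher by a smaller factor, and Wnt9a was higher in ventral cells. By this 2-fold rule 3 of the 8 members leaned to dorsal and 0 to ventral cells, and of all genes with at least 50 UMIs 12.8% leaned to dorsal and 6.03% to ventral cells. Among genes with as many UMIs as the members, these shares were 17.5% and 6.86%. The median log2 ratio of dorsal to ventral CPM was 0.68 over the 8 members and 0.12 over all 15719 genes. Wnt6 leaves the 2-fold group under 5 alternatives and Wnt9a enters the ventral group under 3.

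Wnt5b stood at 5.74 CPM (5.44 to 6.06) over dorsal and 1.68 CPM (1.52 to 1.85) over ventral barcodes, a log2 ratio of 1.77 (1.62 to 1.94). Wnt4, a ligand known from kidney and gonad development, stood at 13.2 CPM (12.7 to 13.7) over dorsal and 4.56 CPM (4.30 to 4.83) over ventral barcodes, a log2 ratio of 1.53 (1.43 to 1.63). Wnt6 was read from few molecules, 168 dorsal and 91 ventral UMIs, with a log2 ratio of 1.03 (0.65 to 1.41). These 3 ligands were the ones past 2-fold. Wnt5a stood at 24.0 CPM (23.4 to 24.6) over dorsal and 15.4 CPM (15.0 to 15.9) over ventral barcodes, a log2 ratio of 0.64 (0.58 to 0.70). Wnt2 stood at 0.960 CPM (0.838 to 1.10) and 0.731 CPM (0.629 to 0.844), a log2 ratio of 0.39 (0.10 to 0.68). Their intervals lay above 0 and short of 2-fold. Wnt9a stood at 2.75 CPM (2.54 to 2.98) over dorsal and 5.14 CPM (4.86 to 5.43) over ventral barcodes, a log2 ratio of -0.90 (-1.04 to -0.76). Wnt11 stood at 2.75 CPM (2.54 to 2.98) and 2.96 CPM (2.75 to 3.17), a log2 ratio of -0.10 (-0.26 to 0.05), and Wnt2b had only 33 and 22 UMIs, with a log2 ratio of 0.73 (-0.09 to 1.58). For Wnt11 and Wnt2b no difference between the libraries was detectable at this depth.

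**Figure D1:**
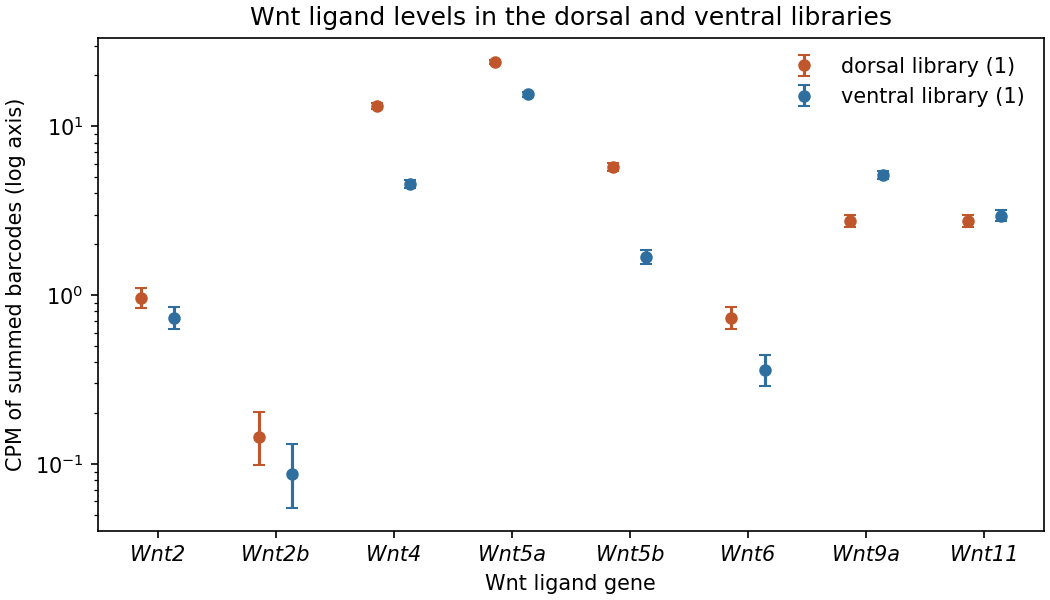
Level of each Wnt ligand as CPM of all summed barcodes (vertical axis, log scale) in the dorsal and the ventral library, 1 library each, with 95% Poisson intervals that cover counting error only. Wnt4 (13.2 and 4.56 CPM) and Wnt5b (5.74 and 1.68 CPM) show the widest dorsal gaps and Wnt9a (2.75 and 5.14 CPM) is the one clearly higher in the ventral library; levels of different genes are not normalised for length.

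RNA outside cells held these transcripts too. In barcodes with at most 100 UMIs, Wnt4 stood at 14.1 CPM in the dorsal library (52 UMIs) and 6.15 CPM in the ventral (43 UMIs), and Wnt5a at 18.9 and 15.2 CPM. No class is known to lack all of these ligands, and macrophage-like cells, in which Wnt5a was among its lowest, serve as the reference for that background. They held Wnt5a at 5.93 CPM (4.45 to 7.74) in the dorsal library and 2.02 CPM (0.874 to 3.99) in the ventral. With every barcode thinned to 8000 UMIs, 4.08% of dorsal macrophage-like cells had a Wnt5a UMI and 17.3% before thinning, at a median depth of 43244 UMIs. Of the barcodes in the macrophage-like cluster 20.8% were scored as doublets, and without these the dorsal level of Wnt5a in them was 3.88 CPM and the ventral level 1.11 CPM, and dorsal Wnt4 was at 2.54 CPM against 5.16 CPM with them. Levels near or under those of macrophage-like cells are read as background, except for Wnt6. That ligand was among its highest in macrophage-like cells, so they give no background level for it.

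Wnt4 was concentrated in a small part of the dorsal library. The 2 dorsal clusters with the highest Wnt4 held 38.3% of its dorsal UMIs in 5.86% of the cells. Cluster 11, 351 dorsal and 0 ventral fibroblast-like cells with the leading genes Thbs4, Grem1 (a secreted BMP antagonist) and Chil1, stood at 106 CPM (99.4 to 114). Wnt4 was itself among the 10 leading genes of this cluster. Cluster 12, 172 dorsal and 0 ventral mural-like cells with the leading genes Des, Chrm2 and Actg2, genes of visceral-type smooth muscle, stood at 96.0 CPM (85.2 to 108). The intervals of clusters 11 and 12 overlapped, and both were above cluster 1, a mesothelial-like cluster, at 23.8 CPM (22.1 to 25.7). The median over the 13 dorsal clusters with at least 50 cells was 5.16 CPM, which is the level of the macrophage-like cluster itself. Cluster 3, a mural-like cluster of 69 cells, had 0 Wnt4 UMIs, which allows up to 3.10 CPM. A group of 38 dorsal skeletal muscle-like cells stood at 36.5 CPM (27.3 to 47.9).

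In the ventral library the Wnt4 pattern was led by other cells. The mesothelial-like cluster 22, led by Upk1b, Msln and Upk3b, stood at 17.7 CPM (16.3 to 19.2) and held 50.1% of the ventral Wnt4 UMIs. The mural-like cluster 14, led by Higd1b and Ehd3, followed at 10.2 CPM (8.01 to 12.8), and the fibroblast-like cluster 13, led by Gpx3, at 4.47 CPM (3.98 to 5.01). These 3 intervals did not overlap. The Sost and Igfbp2 mural-like cluster 18 was the lowest at 0.897 CPM (0.448 to 1.61), within the range of ventral macrophage-like cells at 1.52 CPM (0.557 to 3.30).

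Single dorsal cells carried many Wnt4 molecules. Dorsal cells with at least 3 Wnt4 UMIs numbered 360 of the 1062 with any, and they held 70.9% of the dorsal Wnt4 UMIs. In the ventral library 94 of 739 such cells held 33.4%. The highest count in a barcode was 29 UMIs for dorsal and 14 for ventral cells. After thinning to 8000 UMIs, 41.3% of cluster 11 cells and 22.7% of cluster 12 cells had a Wnt4 UMI, against 58.1% and 27.9% before thinning. Thinned dorsal macrophage-like cells gave 1.02%, and 7.14% before thinning.

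**Figure D2:**
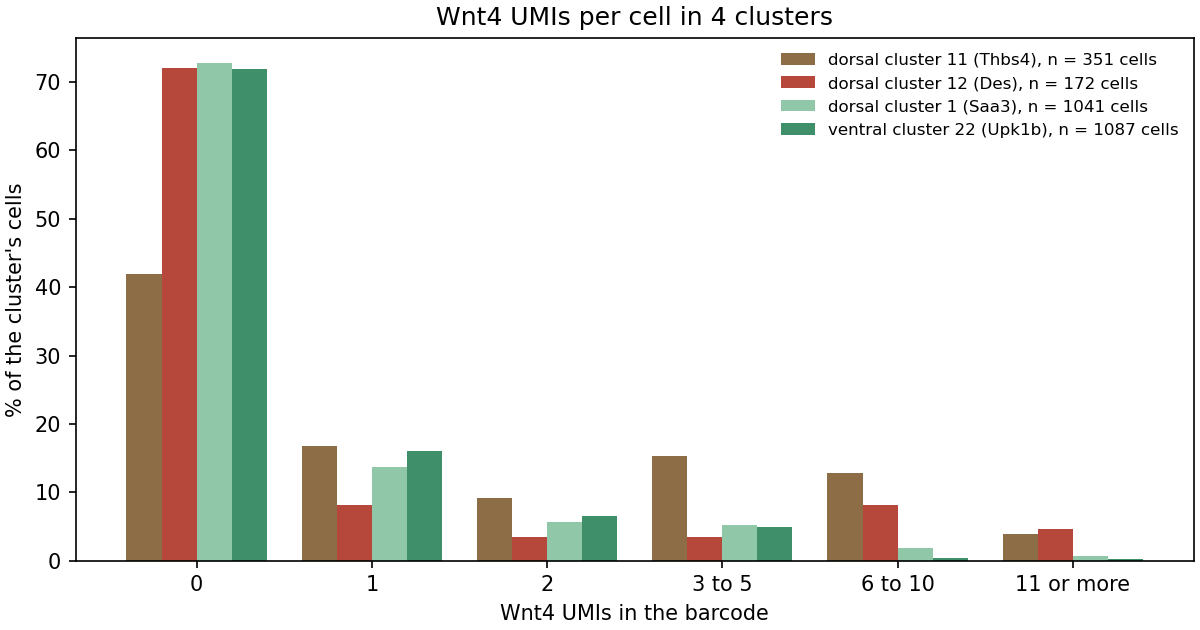
Share of cells (vertical axis, percent) by number of Wnt4 UMIs in the barcode (horizontal axis) in 4 clusters, without thinning. In dorsal cluster 11, 41.9% of the 351 cells had no Wnt4 UMI, and in dorsal cluster 12, 72.1% of the 172 cells had none while 4.65% had 11 or more; the mesothelial-like clusters 1 and 22 rarely reached such counts (0.672% and 0.276%).

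Cluster 12 was uneven within itself. Of its 172 cells, 124 had no Wnt4 UMI, and 23 cells with at least 5 held 84.8% of its Wnt4 molecules. After thinning, Wnt5a was found in 53.8% of the 39 Wnt4-positive cells and in 9.77% of the 133 others. The pair was not as uneven in cluster 11, where Wnt5a was found in 27.6% of Wnt4-positive and 30.1% of Wnt4-negative cells, or in ventral cluster 22, at 30.7% and 28.3%. In the dorsal clusters 1 and 2 the shares were 19.6% against 30.2% and 23.4% against 14.4%. This split of cluster 12 was chosen after its values were seen, and it is given as description with no test. The Wnt4-positive cells had Grem1 at 3090 CPM against 230 CPM, Nog, another BMP antagonist, at 186 against 12.2 CPM, and the chemokine Cxcl14 at 740 against 12.2 CPM. Id1 and Id3, genes that respond to BMP, were at 474 against 23.5 CPM and 2449 against 366 CPM. The Wnt4-positive cells thus shared high Grem1 with cluster 11. Igfbp2 was lower in them, at 16.0 against 1000 CPM, and so were all 10 smooth muscle markers, whose sum was 17843 against 41328 CPM. The Wnt4-positive cells were shallower, at a median of 10235 against 14152 UMIs, and 12.8% of them were scored as doublets against 15.0% of the others. Without the barcodes scored as doublets, Wnt4 stood at 119 CPM in cluster 12 and 115 CPM in cluster 11.

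Wnt5a was the ligand spread over most mesenchymal clusters. In the dorsal library the mesothelial-like cluster 1, led by Saa3, Hpgd and Adgrd1, stood at 50.1 CPM (47.6 to 52.8), and the unnamed Mmp13 and Col10a1 cluster 9 at 45.2 CPM (40.9 to 49.9). Cluster 11 followed at 40.2 CPM (35.9 to 44.8). Neighbours in this order had overlapping intervals. Dorsal glial-like cells were the lowest at 3.20 CPM (1.96 to 4.95). In the ventral library the mesothelial-like cluster 22 stood alone at 45.2 CPM (42.9 to 47.5), and the Fmod and Scx fibroblast-like cluster 16 came next at 16.6 CPM (15.3 to 18.1). The mesothelial-like classes of the 2 libraries, mainly clusters 1 and 22, were close in Wnt5a, with a log2 ratio of 0.13 (0.03 to 0.24). Fibroblast-like cells differed by 0.995 (0.91 to 1.08) on the same scale. Clusters 1 and 22 differed in their mesothelial and fibroblast marker levels, which are given below.

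Wnt5b, the close paralogue of Wnt5a, had a narrower dorsal pattern. Cluster 4, fibroblast-like cells led by Gdf10, Cdo1 and Barx1, stood at 18.1 CPM (16.6 to 19.6) and held 42.3% of the dorsal Wnt5b UMIs. Clusters 9 and 6 came next at 11.2 CPM (9.09 to 13.6) and 8.13 CPM (6.46 to 10.1), with overlapping intervals. The larger fibroblast-like cluster 2, led by Cxcl13 and Tnfsf8, stood at 2.53 CPM (2.14 to 2.97), near the dorsal macrophage-like cells at 2.09 CPM (1.26 to 3.26). The highest ventral cluster was again cluster 22, at 2.88 CPM (2.33 to 3.53). Its interval overlapped that of the cycling cluster 23 at 2.31 CPM. In cluster 4, 17.0% of Wnt5a-positive and 12.7% of Wnt5a-negative thinned cells had a Wnt5b UMI.

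**Figure D3:**
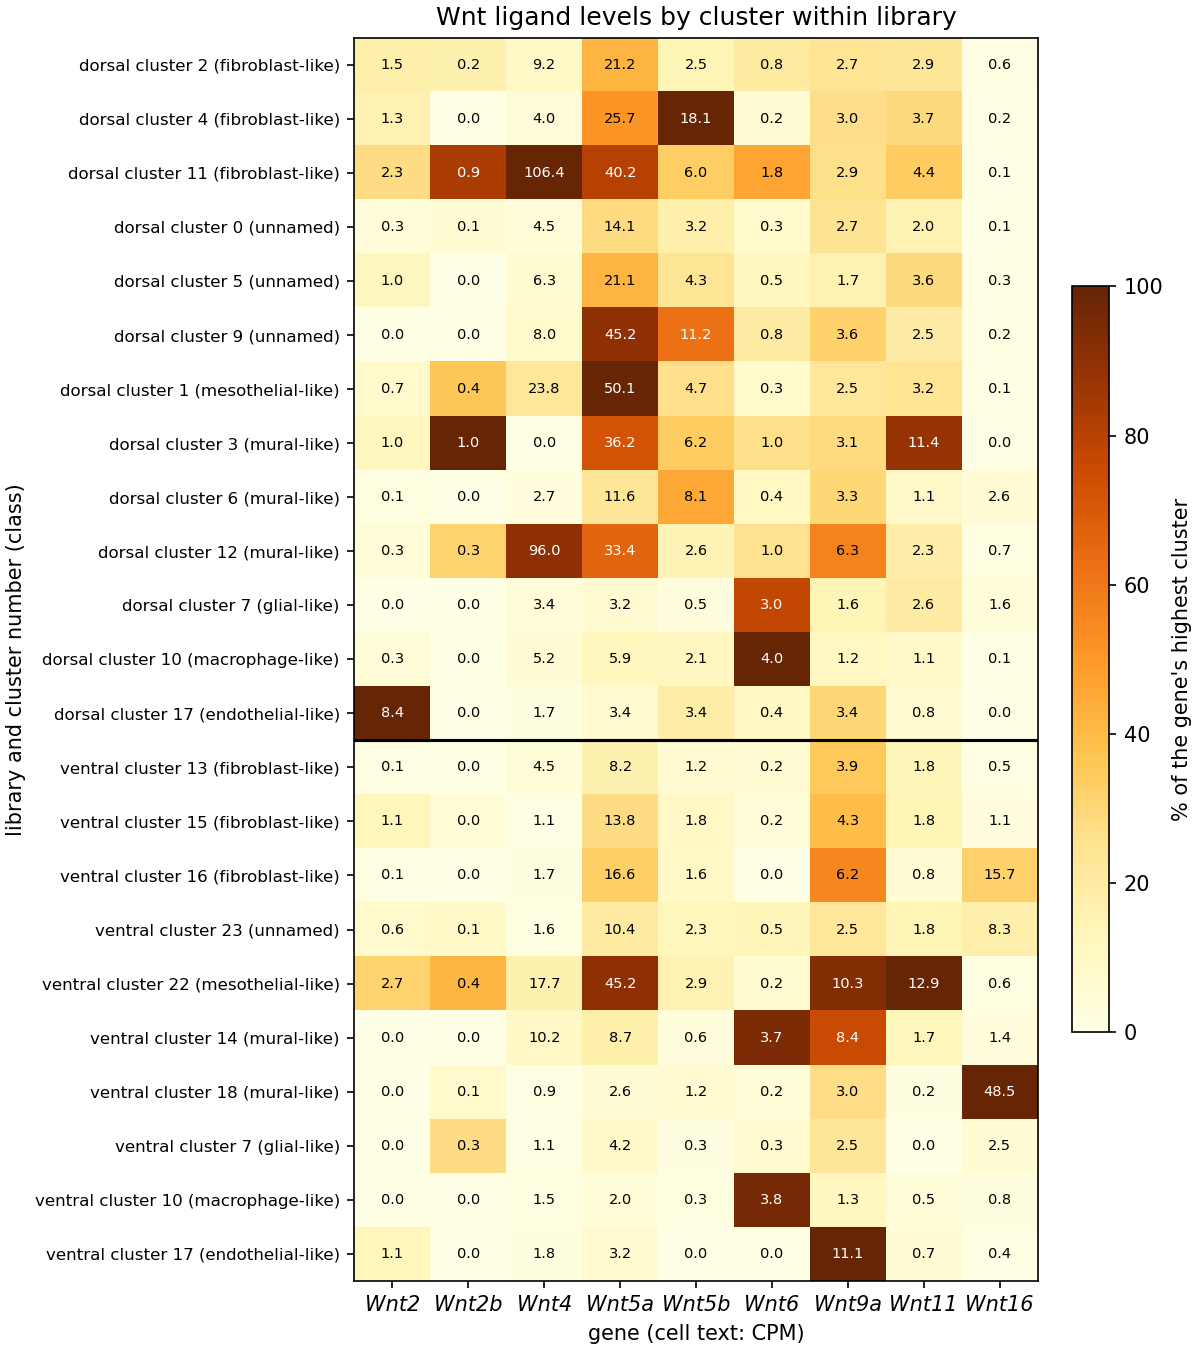
CPM of 8 Wnt ligands and of Wnt16 (printed in each cell) in every cluster with at least 50 cells within the dorsal (above the line) and the ventral library, with colour giving the percent of the gene's own highest cluster. Wnt4 peaks in dorsal clusters 11 and 12 (106 and 96.0 CPM), Wnt5b in dorsal cluster 4 (18.1 CPM), Wnt11 in ventral cluster 22 (12.9 CPM) and Wnt16 in ventral cluster 18 (48.5 CPM).

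Wnt11 was concentrated in the ventral mesothelial-like cells. Cluster 22 stood at 12.9 CPM (11.7 to 14.2) and held 56.4% of the ventral Wnt11 UMIs, and the rest of the ventral library stood at 1.48 CPM. The dorsal library had no such concentration. Its highest cluster, the mural-like cluster 3, stood at 11.4 CPM from 11 UMIs (5.68 to 20.4). Cluster 11 followed at 4.42 CPM (3.10 to 6.12) and then the fibroblast-like cluster 4 at 3.67 CPM. The mesothelial-like cluster 1 was lower, at 3.18 CPM (2.57 to 3.89). The intervals of clusters 3 and 11 overlapped, as did those of clusters 11 and 1.

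Wnt9a was spread widely in the ventral library. The endothelial-like cluster 17 stood at 11.1 CPM (7.55 to 15.8), cluster 22 at 10.3 CPM (9.23 to 11.5) and the mural-like cluster 14 at 8.41 CPM (6.44 to 10.8), all with overlapping intervals. The Fmod and Scx cluster 16, whose first leading genes are known from tendon and valve, stood at 6.15 CPM (5.35 to 7.04). In the dorsal library cluster 12 was the highest, at 6.29 CPM (3.79 to 9.82) from 19 UMIs, and its interval overlapped that of cluster 9 at 3.58 CPM (2.45 to 5.05). Dorsal and ventral macrophage-like cells stood at 1.21 and 1.27 CPM.

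Wnt2 and Wnt2b were low. Wnt2 was highest in dorsal endothelial-like cells, at 8.43 CPM (5.15 to 13.0) from 20 UMIs in 99 cells, while ventral endothelial-like cells held 3 UMIs, 1.08 CPM (0.222 to 3.14). Cluster 2 held 38.6% of the dorsal Wnt2 UMIs at 1.46 CPM (1.17 to 1.81). In the ventral library clusters 22 and 15 together held 87.0% of the Wnt2 UMIs in 36.1% of the cells. Cluster 22 stood at 2.67 CPM (2.14 to 3.29), and cluster 15, fibroblast-like cells led by Epha3, Angpt2 and Cd200, at 1.12 CPM (0.877 to 1.40). Wnt2b was too sparse to order its clusters, and 63.6% of its 22 ventral UMIs lay in mesothelial-like cells.

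Among clusters with at least 50 cells, Wnt6 was highest in macrophage-like cells, a ventral mural-like cluster and dorsal glial-like cells. Macrophage-like cells stood at 3.95 CPM (2.77 to 5.47) in the dorsal library and 3.80 CPM (2.12 to 6.26) in the ventral, the mural-like cluster 14 of the ventral library at 3.72 CPM (2.45 to 5.42) and dorsal glial-like cells at 3.04 CPM (1.83 to 4.75). These 4 levels overlapped in their intervals. Ventral glial-like cells, 185 in number, held 1 Wnt6 UMI, 0.283 CPM (0.007 to 1.58). The dorsal glial-like cells also held epithelial markers at 285 CPM and mesothelial markers at 418 CPM. Whether the dorsal cells with Wnt6 in that cluster were glial was not tested. The rest of the dorsal library outside its macrophage-like cells stood at 0.600 CPM and the rest of the ventral at 0.305 CPM. The dorsal value rests on 36 UMIs in 196 cells and the ventral on 15 UMIs in 131 cells, and without the barcodes scored as doublets the dorsal level was 4.93 CPM and the ventral level 5.54 CPM, no lower than with them.

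The class that held the largest part of a ligand's UMIs differed between the libraries for 5 of the 8 members, and for 4 or 5 of them under the alternatives run. Wnt5a, Wnt5b and Wnt9a, 3 of 8, had the same leading class in both, the fibroblast-like cells. Wnt4 passed from fibroblast-like cells in the dorsal library (50.5% of its UMIs) to mesothelial-like cells in the ventral (50.4%), and Wnt11 likewise (51.0% and 56.7%). Wnt2 did the same (66.4% and 47.0%), as did Wnt2b on few UMIs, but at Leiden resolution 2.0 the ventral leader of Wnt2 was the fibroblast-like class (38.9%). For Wnt6 the ventral leaders were nearly level, at 29 UMIs in mural-like and 26 in fibroblast-like cells. Fibroblast-like cells were 43.1% of dorsal and 67.2% of ventral cells and mesothelial-like cells 11.8% and 10.3%, so the shares of a ligand also follow how many cells each class had. At a coarser clustering (Leiden resolution 0.5) most dorsal fibroblast-like clusters went unnamed and the dorsal leaders of 6 members became mesothelial-like.

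**Figure D4:**
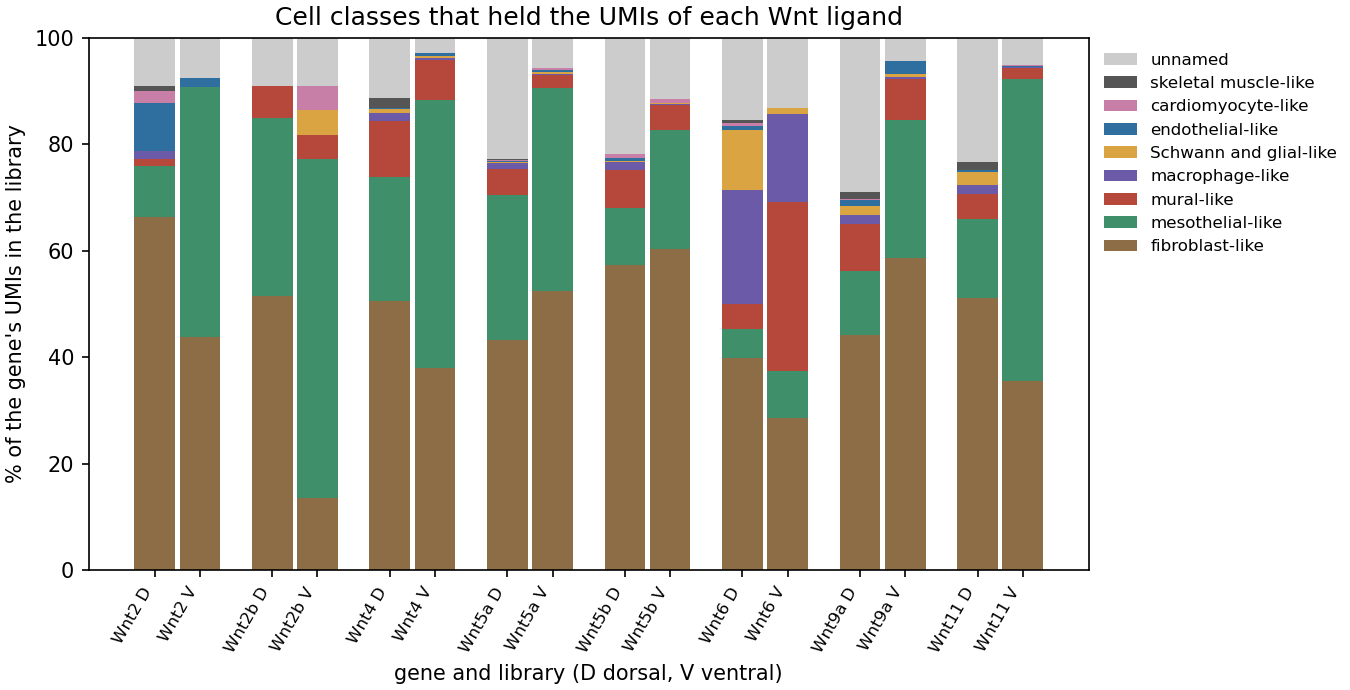
Share of each ligand's UMIs (vertical axis, percent of the gene's UMIs in the library) held by each cell class, with dorsal and ventral bars side by side. Mesothelial-like cells hold 23.3% of dorsal and 50.4% of ventral Wnt4 UMIs and 14.9% and 56.7% of Wnt11 UMIs, and macrophage-like cells hold 21.4% and 16.5% of Wnt6 UMIs.

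Within fibroblast-like cells the dorsal excess was wider than over all cells. Of 7 members with at least 50 UMIs in that class, 5 passed 2-fold towards dorsal and 0 towards ventral cells, as did 11% and 7.33% of all genes. Clusters 2, 4 and 11 make up nearly all of the dorsal and clusters 13, 15 and 16 nearly all of the ventral class. The log2 ratios were 2.58 (2.42 to 2.73) for Wnt4, 2.34 (2.13 to 2.55) for Wnt5b, 2.14 (1.47 to 2.86) for Wnt6, 1.63 (1.23 to 2.04) for Wnt2 and 1.05 (0.81 to 1.29) for Wnt11. The Wnt6 ratio rests on 67 dorsal and 26 ventral UMIs, at 0.682 and 0.154 CPM, with no background level to set beside them. Of these 7, Wnt9a alone was higher in ventral fibroblast-like cells, at -0.67 (-0.88 to -0.47). The unnamed dorsal cluster 0, with 1619 cells led by Sele and Cxcl2, had 10 of 10 fibroblast markers in at least 50% of its cells and stayed out because a pericyte marker was among its leading genes. With it added, an alternative chosen after seeing the data, 4 of 7 members passed 2-fold towards dorsal cells and Wnt11 did not, at 0.85 (0.62 to 1.08), and the count was also 4 with the unnamed clusters 5, 9 and 23 added as well. The shift of TMM scaling (-0.12) takes Wnt11 under 2-fold too. For Wnt5b the lowest of the 3 dorsal clusters, cluster 2, stood at 2.53 CPM and the highest of the 3 ventral ones at 1.75 CPM. Cluster 2 was near the dorsal macrophage-like level of 2.09 CPM. For Wnt4 the lowest dorsal cluster, at 3.96 CPM, lay under the highest ventral one, at 4.47 CPM. That dorsal cluster was also under the dorsal macrophage-like level of Wnt4, 5.16 CPM. Clusters of 1 library are not replicates of a domain, and the share of all genes with clusters ordered as for Wnt5b was not counted.

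Mural-like cells also held several ligands at higher levels in the dorsal library, on fewer molecules. Clusters 3, 6 and 12 make up nearly all of the dorsal and clusters 14 and 18 nearly all of the ventral class. Wnt5b, Wnt4 and Wnt5a, 3 of 4 members with at least 50 UMIs, passed 2-fold towards dorsal cells, with log2 ratios of 2.69 (1.99 to 3.47), 2.34 (1.99 to 2.71) and 1.93 (1.59 to 2.28). The background was 9.79% of genes for dorsal and 4.17% for ventral, and 0 of the 4 were past 2-fold in ventral mural-like cells. Wnt6, under 50 UMIs in the class with 8 dorsal and 29 ventral UMIs, was at -1.41 (-2.75 to -0.25) on the same scale. Of the dorsal Wnt4 UMIs in this class, 290 of 317 lay in cluster 12, so the mural-like ratio of Wnt4 rests mainly on cluster 12. In macrophage-like cells Wnt4 and Wnt5a, 2 of 3 members, were past 2-fold in dorsal and 0 in ventral cells (background 4.57% and 3.18%), at the low levels read above as background.

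Mesothelial-like cells held several ligands at lower levels in the dorsal library. Here 0 of 6 members passed 2-fold towards dorsal and 3 towards ventral cells, as did 7.41% and 8.02% of all genes. Wnt11 stood at 3.14 CPM in the former and 13.0 CPM in the latter, a log2 ratio of -2.04 (-2.38 to -1.72). Wnt9a stood at 2.51 and 10.3 CPM, a log2 ratio of -2.04 (-2.42 to -1.68), and Wnt2 at 0.702 and 2.66 CPM, a log2 ratio of -1.92 (-2.68 to -1.22). These 3 ligands were lower in the dorsal cells by nearly the same factor. Wnt4 and Wnt5b were higher in dorsal mesothelial-like cells, at 0.41 (0.25 to 0.57) and 0.69 (0.30 to 1.08) on the log2 scale. The class is held by different clusters in the 2 libraries, cluster 1 in dorsal and cluster 22 in ventral. Cluster 1 met 4 of 10 mesothelial markers (Msln, Lrrn4, Wt1 and Bnc1) and had none among its 10 leading genes. The summed level of the 10 mesothelial markers, none of them at 0, was 529 CPM in dorsal cluster 1 and 2326 CPM in ventral cluster 22. The 10 fibroblast markers summed to 15189 CPM in cluster 1 and 9745 CPM in cluster 22. That sum for cluster 1 lay within the range of the dorsal fibroblast-like clusters, from 11992 CPM in cluster 4 to 16690 CPM in cluster 2. The ratios of this class thus compare clusters with unlike markers, and the part of these differences in the Wnt ratios was not tested.

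**Figure D5:**
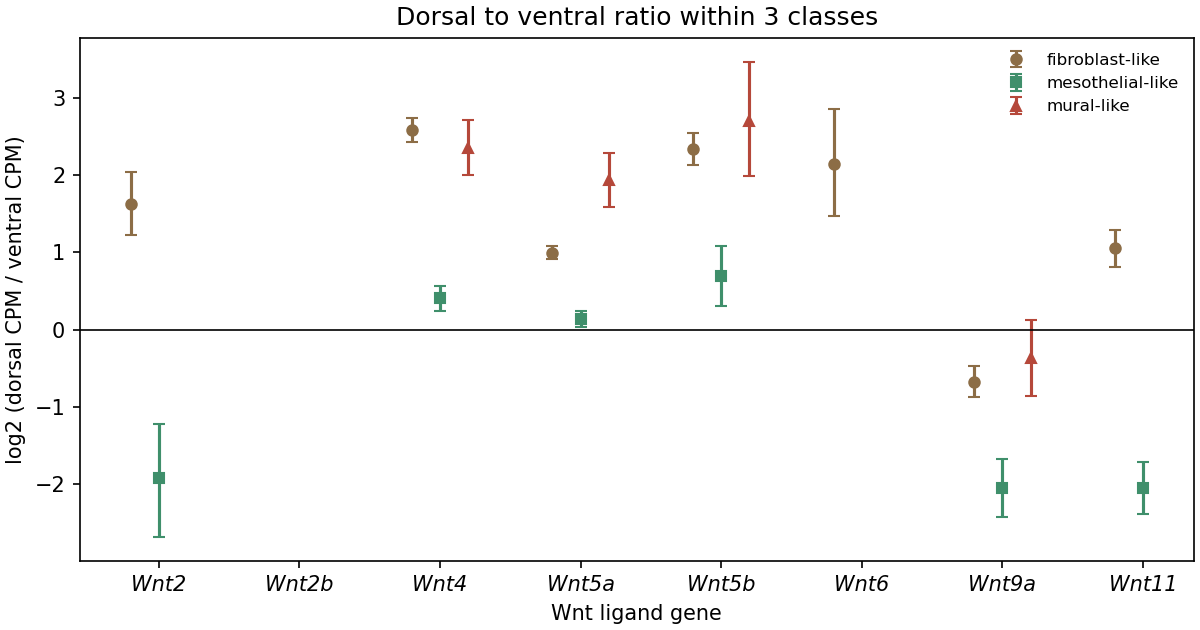
Log2 ratio of dorsal to ventral CPM (vertical axis) for each ligand with at least 50 UMIs within fibroblast-like, mesothelial-like and mural-like cells, with 95% intervals that cover counting error only. Wnt2 and Wnt11 lie above 0 in fibroblast-like cells (1.63 and 1.05) and below 0 in mesothelial-like cells (-1.92 and -2.04), and Wnt9a lies below 0 in fibroblast-like and mesothelial-like cells, while its mural-like interval (-0.86 to 0.12) spans 0.

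Promoters of Wnt9a and Wnt11 are shown because these ligands had nearly the same ratio in mesothelial-like cells. Wnt2 had a similar ratio there, and whether promoter sequence bears on any of these ratios was not tested. Each is the 200 bases before a start listed in RefSeq on GRCm38.p6, on the coding strand. Wnt9a lies at chr11:59306730-59306929 and Wnt11 at chr7:98834912-98835111, both on the plus strand. Capitals mark matches on either strand to the GC box (GGGCGG), the CAAT-type box (CCAAT), the TATA box (TATAAA), the core bound by Tcf and Lef factors (ATCAAAG) and the Gli consensus (GACCACCCA), and adjoining capitals can be overlapping matches.
Wnt9a: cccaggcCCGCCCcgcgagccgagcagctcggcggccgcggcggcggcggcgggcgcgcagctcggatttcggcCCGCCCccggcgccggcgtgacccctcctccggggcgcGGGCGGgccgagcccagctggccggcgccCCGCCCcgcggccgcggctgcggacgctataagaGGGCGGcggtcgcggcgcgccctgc
Wnt11: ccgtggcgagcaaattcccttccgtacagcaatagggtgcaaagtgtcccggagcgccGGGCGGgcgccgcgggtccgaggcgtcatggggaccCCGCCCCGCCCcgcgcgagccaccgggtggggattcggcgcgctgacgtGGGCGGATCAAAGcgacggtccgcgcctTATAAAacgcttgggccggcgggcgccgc
Both held GC boxes, which were found in 31.0% of all 32851 promoters of this length. This Wnt11 window also held TATAAA, found in 9.96%, and ATCAAAG, found in 2.45%. A second RefSeq start of Wnt11, with the window chr7:98838645-98838844, held none of these motifs. Neither printed window held CCAAT (29.3% of promoters) or GACCACCCA (0.161%). A match is a description of letters and not a bound site.

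Few cells held several ligands. After thinning, 71.2% of dorsal and 81.8% of ventral cells had no UMI of any of the 8 genes, 24.2% and 16.1% had 1 of them, and 4.26% and 1.93% had 2. Before thinning, 45.3% of dorsal and 61.4% of ventral cells had none. At that depth 13.6% and 7.92% had 2 and 2.85% and 1.98% had 3, so these shares depend on depth. Across the 23 combinations of cluster and library with at least 50 cells, Wnt5a followed Wnt11 most closely among the members (Pearson r = 0.76 of log2 CPM with 1 CPM added) and Wnt5b next (r = 0.72), as a description of points that share libraries and depth. Of 8565 genes compared in the same way, Hlf (a transcription factor, r = 0.81), Chil1 (0.76) and Hpgd (the prostaglandin-degrading enzyme, 0.76) were the most like Wnt4. For Wnt5a they were C1ra (a complement protease, r = 0.92), Gas1 (a hedgehog co-receptor, 0.91) and Tmem53 (0.89). For Wnt5b they were Iigp1 (an interferon-induced GTPase, r = 0.87), Fam69b (0.86) and Brinp1 (0.85). The genes most like Wnt11 were Tmeff2 (r = 0.80), L3hypdh and H2-T22 (both 0.77). Those most like Wnt9a were Ajuba (r = 0.80), Mnat1 (0.77) and S100a11 (0.76). For Wnt2 they were Sema3a (an axon guidance ligand, r = 0.80), Pvrl2 (0.78) and Unc45b (0.76), all highest in dorsal endothelial-like cells. For Wnt6 they were M6pr (the mannose 6-phosphate receptor, r = 0.81), Dnase1l1 (0.78) and Adap2 (0.74), all highest in ventral macrophage-like cells.

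Of the 11 Wnt ligands outside the members, 2 had at least 50 UMIs. Wnt16, a ligand known from bone and joint tissue, was a ventral gene, with 95 dorsal and 1466 ventral UMIs and a log2 ratio of -3.80 (-4.12 to -3.50). It stood at 48.5 CPM (44.7 to 52.6) in the Sost and Igfbp2 mural-like cluster 18 and at 15.7 CPM (14.4 to 17.1) in the Fmod and Scx cluster 16, which together held 77.7% of its ventral UMIs. Cluster 18 was among the lowest ventral clusters for Wnt4, Wnt5a and Wnt11, while cluster 16 was the second highest ventral cluster for Wnt5a, at 16.6 CPM. Wnt10a had 64 dorsal and 7 ventral UMIs, and 65.6% of the dorsal ones lay in the 38 skeletal muscle-like cells. Of the 31 dorsal Wnt7b UMIs, 87.1% lay in the glial-like cluster 7, as 27 UMIs in 6 of its 420 dorsal cells. Beside glial markers summed at 2413 CPM, these dorsal cells held epithelial markers at 285 CPM and mesothelial markers at 418 CPM. Epithelial markers were at 3.64 CPM or less in the other dorsal clusters with at least 50 cells. Whether the cells with Wnt7b were glial was not tested. Wnt3a and Wnt8a had 0 UMIs in both libraries, which allows up to 0.0131 CPM in the dorsal and 0.0119 CPM in the ventral cells.

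The lists of genes that handle, receive, restrain or respond to Wnt proteins had median log2 ratios from -0.61 to 0.46, against 0.12 over all genes. In the list for acylation, release and handling, 1 of 6 genes with at least 50 UMIs passed 2-fold towards dorsal and 1 towards ventral cells, with a median log2 ratio of -0.29. Porcn stood at 6.89 CPM over dorsal and 3.23 CPM over ventral barcodes, a log2 ratio of 1.09 (0.97 to 1.22). It was highest in cluster 11 at 12.8 CPM, 1 of the 2 clusters with the highest Wnt4. In cluster 12, the other of these, Porcn was at 5.63 CPM, under its level over all dorsal barcodes. Wls stood at 163 and 189 CPM, a log2 ratio of -0.22 (-0.24 to -0.20). The glypican Gpc4, a cell-surface proteoglycan that binds Wnt proteins, was the ventral gene, at 35.5 and 117 CPM, a log2 ratio of -1.72 (-1.76 to -1.69).

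Among Frizzled and Lrp receptors, 1 of 11 passed 2-fold towards dorsal and 0 towards ventral cells, with a median of -0.45. That gene was Fzd9, at a log2 ratio of 1.91 (1.41 to 2.44) on 143 and 42 UMIs, whereas Fzd1 was at 0.78 (0.74 to 0.82) and Fzd6 at -0.89 (-1.003 to -0.77). Of the Ror, Ryk and planar polarity genes, 2 of 10 were past 2-fold in dorsal and 0 in ventral cells, with a median of 0.46. Ror2, a receptor of Wnt5a, stood at 10.5 and 5.24 CPM, a log2 ratio of 1.01 (0.91 to 1.11), and was highest in cluster 12 at 25.1 CPM. Celsr1, a polarity cadherin, was at 1.005 (0.49 to 1.54). The ratios of Wnt6, Porcn, Ror2 and Celsr1, and of the target gene Tcf7, lie so near 2-fold that the shift of TMM scaling (-0.12) takes them under it, and it takes Fzd6 past 2-fold towards ventral cells.

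The secreted inhibitors were split. Of 9 with at least 50 UMIs, 3 passed 2-fold towards dorsal and 1 towards ventral cells, with a median of -0.07. Wif1, which binds Wnt proteins directly, was at a log2 ratio of 3.44 (2.93 to 3.98) and highest in dorsal cluster 9 at 21.6 CPM. Sost, an Lrp antagonist, was at -4.43 (-4.65 to -4.22) and highest in ventral cluster 18 at 268 CPM, the cluster with the highest Wnt16. Of the R-spondins, which strengthen Wnt signals, and their partners, 2 of 8 were past 2-fold in dorsal and 0 in ventral cells, with a median of 0.15. Rspo3 stood at 199 and 48.6 CPM, a log2 ratio of 2.04 (2.01 to 2.06), and was highest in cluster 12 at 447 CPM. Of 8 genes known as targets of the beta-catenin branch, 1 was past 2-fold in each direction, with a median of -0.61. Tcf7, at 1.06 (0.79 to 1.34), and Axin2, the feedback inhibitor, at 0.66 (0.36 to 0.97), were the 2 higher in dorsal cells, and the other 6 were higher in ventral cells, from Nkd2 at -0.21 (-0.28 to -0.14) to Sp5 at -4.20 (-5.28 to -3.29). The Sp5 ratio rests mainly on the 132 ventral endothelial-like cells of cluster 17, at 65.3 CPM. In the other ventral clusters with at least 50 cells Sp5 was at 0.283 CPM or less.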

How the data were processed

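The submitters' processing notes name Cell Ranger 3.0.2 and mm10. The annotation release and strand setting are, in the sources used here, not given. Raw UMI counts were deposited by the authors, not normalised, for 28692 genes and 6794880 barcodes per library, with 246920028 dorsal and 264822916 ventral UMIs in all. The barcodes kept held 92.8% and 95.6% of these.

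CPM were computed from summed counts, with exact Poisson intervals, exact conditional binomial intervals for ratios and Clopper-Pearson intervals for shares, all at 95% and for counting error only. With 1 library per domain no test was made. A 2-fold difference with at least 50 UMIs is a size rule. A count of 0 allows 3 counts. The interval code was tested on simulated data.

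Cells of both libraries were clustered together with scanpy 1.11.5 (10000 UMIs per cell, log scale, 2000 variable genes without Wnt pathway genes, 30 principal components, 15 neighbours, Leiden resolution 1, no integration). A class needed at least 3 markers detected in at least 25% of cells and 2-fold above other cells, or, for fibroblasts, 5 markers in at least 50% of cells. No name was given where another class had more markers among the 10 leading genes (clusters 0 and 9), where at least 5 of the 10 were cell cycle genes (clusters 5 and 23) or where a cluster had fewer than 25 cells. The naming rule was set after the clusters were seen. Doublets were kept. Scrublet's automatic threshold marked 0 dorsal barcodes, so it failed there, and 768 ventral; the 637 dorsal and 907 ventral barcodes scored highest, at 0.008 of cells per 1000 cells, were left out as an alternative. TMM scaling used edgeR 4.0.16. Members, lists, markers and alternatives were chosen with earlier results of these data known. Named genes were the members, other Wnt ligands with at least 50 UMIs, up to 4 genes per list with the widest ratios, the 3 most like each member with at least 200 UMIs (highest cluster at least 20 CPM), and leading genes of clusters; Wls, Axin2, Nkd2, Wnt7b, Wnt3a and Wnt8a, and the genes compared within cluster 12, were named after their values were seen. Of 28692 gene IDs, 28416 matched GENCODE M21.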

Additional observations from a re-analysis of the deposited data

Results flagged for a closer look

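Wnt2 and Wnt11 had ratios of opposite sign in different classes. In fibroblast-like cells the log2 ratio of dorsal to ventral CPM was 1.63 for Wnt2 and 1.05 for Wnt11, and in mesothelial-like cells it was -1.92 and -2.04. The difference between the classes was not tested, since each domain is 1 library. The mesothelial-like values compare dorsal cluster 1 with ventral cluster 22. These differed in summed mesothelial markers (529 and 2326 CPM) and fibroblast markers (15189 and 9745 CPM).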

How the results depend on the processing

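The count of members past 2-fold towards ventral cells went from 0 to 1, Wnt9a, with at least 16000 UMIs per barcode (1), under TMM scaling (1) and under median-of-ratios size factors (1). The count for dorsal cells was 3 or 2 under the 9 alternatives, and Wnt6 was the member lost. The ratios of Wnt2, Wnt2b, Wnt4, Wnt5a, Wnt5b, Wnt6 and Wnt9a kept their sign under all 8 alternatives run. Wnt11 changed sign under 1, at 0.23 with every barcode thinned to 8000 UMIs. Log2 ratios ranged from 1.23 to 1.98 for Wnt4, 1.49 to 1.92 for Wnt5b, 0.49 to 0.91 for Wnt5a and -1.04 to -0.62 for Wnt9a. TMM moved all ratios by -0.12 and median-of-ratios by -0.14, which brought the median of all genes from 0.12 to 0.01 and -0.02. The number of members with the same leading class in both libraries was 3 or 4 under 5 alternatives, though at Leiden resolution 0.5 the members counted were others. No paired analysis was possible because each domain is 1 library and no test was made. Depth limits Wnt2b (55 UMIs) and Wnt6 most. Nothing here separates domain from dissection, culture or library preparation.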
